A study of Mus musculus with 18 samples.

Results

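A set of genes of cholesterol synthesis were read in pancreatic islets of mice on a high-fat diet, with NRK1 removed from beta cells or present. They are Hmgcs1, Fdps, Fdft1, Sqle and Cyp51, which encode enzymes, and Insig1, which encodes a regulator of the pathway. The rule took the rows of the deposited table whose gene symbol was on a list of 7 names, and 6 of the 7 were listed among 10509 genes. Idi1 was not analysed here. NRK1 phosphorylates nicotinamide riboside on its way to NAD, and its mouse gene symbol is Nmrk1. The knockout group (NRK1_BKO, called KO here) had 10 mice and the WT group (NRK1_WT) had 8, with 1 islet library per mouse. All 18 mice had 12 weeks of high-fat diet. The knockout was made with Ins1Cre, a Cre recombinase driven by an insulin gene promoter and so active in beta cells, while alpha, delta and other islet cells keep the gene. The titles of both groups carry the Ins1Cre prefix, and the labels do not say whether the WT mice carry the Cre. Age, sex and strain were not used here.

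Cells build cholesterol from acetyl-CoA in a long chain of steps in the cytosol and the endoplasmic reticulum. HMG-CoA synthase, from Hmgcs1, works near the head of the chain, before mevalonate is made. Farnesyl diphosphate synthase (Fdps) makes the last intermediate shared with protein prenylation, ubiquinone and dolichol. Squalene synthase (Fdft1) is the first enzyme committed to sterols. Squalene epoxidase (Sqle) adds an oxygen to squalene before the sterol ring is closed, and lanosterol demethylase (Cyp51) starts the trimming of lanosterol. When sterols are low, the protein SCAP carries the transcription factor SREBP2 (Srebf2) to the Golgi, where it is cut and released to switch on these genes. INSIG1 holds SCAP back in the endoplasmic reticulum when sterols are plentiful, and Insig1 is itself a target of the pathway. Cholesterol in beta cell membranes is known to bear on insulin granules and secretion.

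The libraries were 3′ end libraries and held 2846386 to 4303680 reads in KO and 2831137 to 4146746 in WT over the listed genes. Levels are given in CPM, the read count scaled to library size, and tests used the deposited log2 scale, log2 of CPM plus a floor of 0.562. A read was worth 0.238 to 0.411 CPM. Ins1 and Ins2 together took 49.0% ± 5.67 (SD, n = 10) of the reads in KO and 45.9% ± 4.04 (SD, n = 8) in WT. Of 10 beta-cell markers, 9 were listed and had reads in every library. Of these 9, 7 were lower and 2 higher on average in KO, with a median log2 fold change of -0.12. At a limma unadjusted p under 0.05, 0 of the 9 passed. The lowest, median and highest level of Nmrk1 were 1.51, 3.59 and 5.54 CPM in KO and 0.886, 4.27 and 9.44 CPM in WT. That is a log2 fold change of -0.03 (95% interval -0.75 to 0.70; limma adjusted p = 0.997). It rests on 3 to 36 reads. The labels do not give the deleted part of the gene, and 3′ reads outside it check nothing. The libraries with the most listed genes at 0 reads were KO 2, KO 3 and WT 7, with 320, 227 and 346 genes.

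Promoters were available for 3 of the 6 genes and are printed because SREBP2 acts there on sterol regulatory elements, usually beside a CCAAT box, which binds the cofactor NF-Y. Each is 300 bases long and ends 50 bases after the annotated start (RefSeq, GRCm38.p6), 5′ to 3′ on the strand of the gene. Hmgcs1 is at chr13:119690101-119690400 on the plus strand, Cyp51 at chr5:4104648-4104947 on the minus strand and Insig1 at chr5:28071162-28071461 on the plus strand. Capitals mark the sterol regulatory element, searched as TCACNCCAC, and the CCAAT box, which reads ATTGG on the other strand.
Hmgcs1: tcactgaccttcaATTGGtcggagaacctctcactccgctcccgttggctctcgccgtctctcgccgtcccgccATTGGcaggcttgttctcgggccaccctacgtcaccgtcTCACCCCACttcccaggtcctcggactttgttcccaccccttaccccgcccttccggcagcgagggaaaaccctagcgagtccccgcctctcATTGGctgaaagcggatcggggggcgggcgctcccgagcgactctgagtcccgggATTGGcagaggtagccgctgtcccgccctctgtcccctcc
Cyp51: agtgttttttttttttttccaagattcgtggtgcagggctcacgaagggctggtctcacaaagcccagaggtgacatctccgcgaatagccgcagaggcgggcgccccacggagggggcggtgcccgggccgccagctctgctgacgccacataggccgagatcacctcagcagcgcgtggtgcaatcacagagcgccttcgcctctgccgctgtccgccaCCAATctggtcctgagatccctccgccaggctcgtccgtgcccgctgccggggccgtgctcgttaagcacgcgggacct
Insig1: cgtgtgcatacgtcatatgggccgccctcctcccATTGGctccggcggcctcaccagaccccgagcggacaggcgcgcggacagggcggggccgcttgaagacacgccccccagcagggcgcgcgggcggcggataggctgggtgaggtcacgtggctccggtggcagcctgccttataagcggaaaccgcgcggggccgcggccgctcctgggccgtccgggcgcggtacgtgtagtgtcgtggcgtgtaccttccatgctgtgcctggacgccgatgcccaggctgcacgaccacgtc
The Hmgcs1 window held the element TCACCCCAC at 137 bases before the start and 4 CCAAT boxes. The Cyp51 and Insig1 windows held 1 CCAAT box each and no match to TCACNCCAC. Other forms of the sterol regulatory element were not searched, so a window without this match may still hold one. Both strands were searched, and the motifs do not overlap. Of 32851 promoters of the same length, 1.24% held TCACNCCAC and 37.4% held CCAAT. Another motif, the GC box GGGCGG, is bound by SP1, a frequent partner of SREBP2. It had 3 matches in Hmgcs1, 1 in Cyp51 and 3 in Insig1, and was found in 35.7% of promoters. These matches are letters in a window and were not read as binding. The promoters of Fdps, Fdft1 and Sqle are named only.

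The 6 genes spanned a wide range of levels. Because a 3′ library gives reads from transcript ends, which do not scale with transcript length, levels of different genes were compared in CPM with no division by length. Sqle was the highest at a mean of 108 CPM over the 18 libraries, above 90.9% of all listed genes. Hmgcs1, Fdps and Cyp51 were close together at 33.4, 32.9 and 32.8 CPM. Insig1 averaged 10.8 CPM and Fdft1 7.43 CPM. Sqle was above Hmgcs1 in 18 of 18 libraries, with means 3.25 times apart, and Cyp51 was above Insig1 in 18 of 18, with means 3.03 times apart. The order within the middle group did not hold from library to library: Hmgcs1 was above Fdps in 10 of 18, and Fdps above Cyp51 in 10 of 18. Insig1 was above Fdft1 in 13 of 18. Counting error accounted for 3.65% of the variance within groups for Sqle and for 17.6% for Fdft1, the lowest gene.

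**Figure D1:**
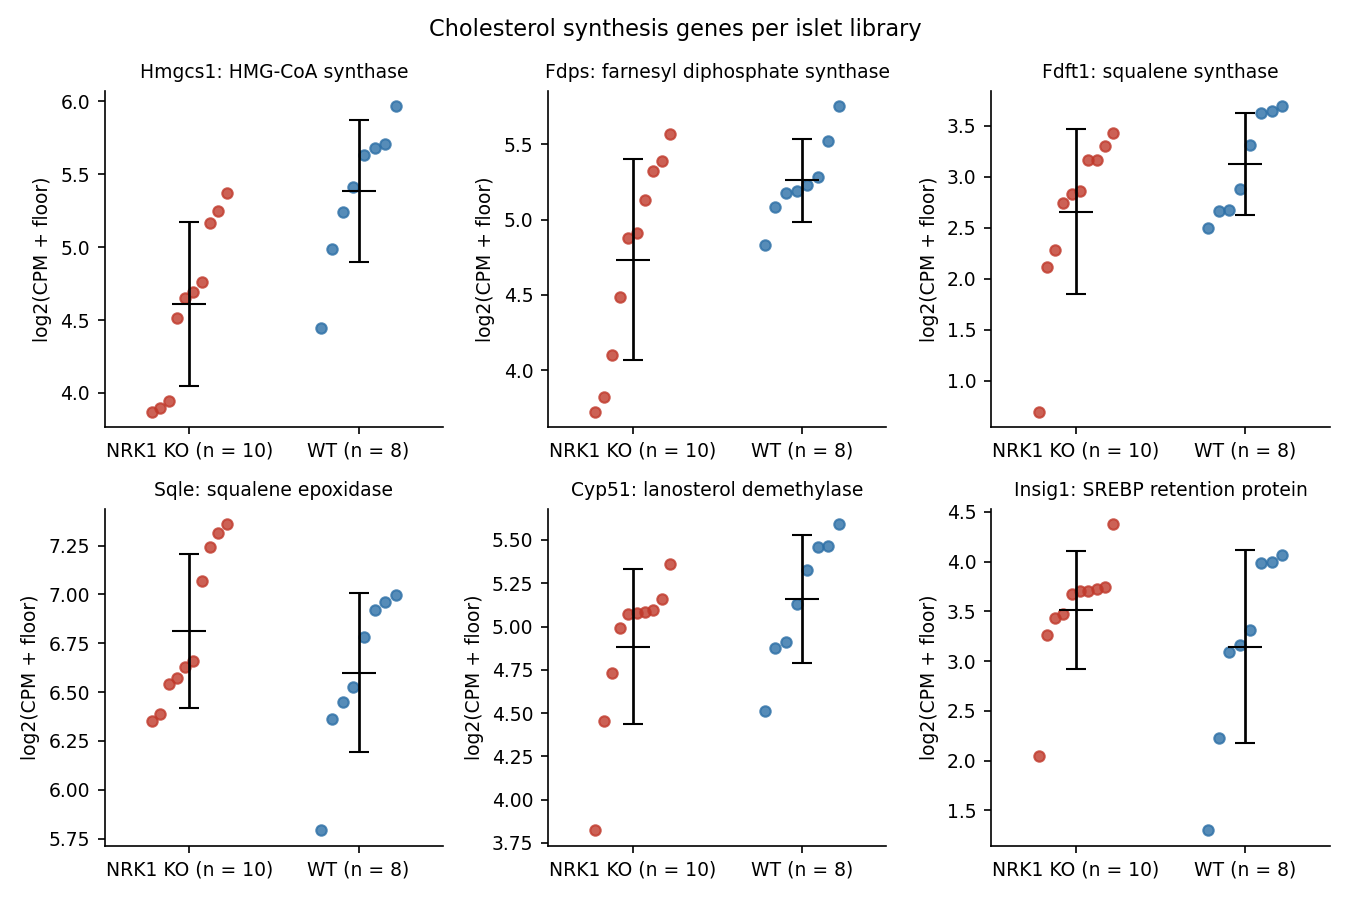
Each point is 1 islet library, on the log2(CPM + floor) scale, with NRK1 KO (n = 10) left of WT (n = 8) in each panel; the black marks are means with SD. Hmgcs1 shows the widest gap between groups, with 10 of 10 KO libraries below the WT mean, and the groups overlap in all 6 panels.

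The data show no gene of the set past the threshold between KO and WT. Hmgcs1 had the largest difference, with a fold of 0.585 for KO over WT, and Fdps, Fdft1 and Cyp51 were also lower on average. Sqle and Insig1 were higher on average. In the limma fit, 0 of 6 members had a Benjamini-Hochberg adjusted p under 0.05, as did 0% of all 10509 genes. At an unadjusted p under 0.05 in either direction, 5.4% of all genes passed. At that level, 2 members were lower in KO (Hmgcs1 and Fdps) against 2.22% of all genes, and 0 were higher against 3.18%. The median log2 fold change was -0.37 over the 6 members and -0.0025 over all genes. The p-values measure the spread between mice.

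Hmgcs1 (chr13:119690351-119708260), whose product works near the head of the pathway, had a lowest, median and highest level of 14.1, 25.0 and 40.9 CPM in KO. In WT these were 21.2, 45.5 and 62.1 CPM. Its mean was 25.6 ± 9.77 CPM (SD, n = 10) in KO and 43.1 ± 13.01 CPM (SD, n = 8) in WT. The groups overlapped: 3 KO libraries (KO 3, KO 8 and KO 10) were below the lowest WT library, and 5 WT libraries were above the highest KO library. Over all listed genes, 0.00952% had groups with no overlap. The log2 fold change of Hmgcs1 was -0.77 (SE 0.23, 95% interval -1.24 to -0.31), with an unadjusted p of 0.00200 and a limma adjusted p of 0.797. An exact permutation test over 43758 regroupings, two-sided and unadjusted, gave p = 0.0084. By unadjusted p Hmgcs1 ranked 22 of 10509 genes and 9 among those lower in KO. In bulk islets, fewer cells of a type and less RNA per cell cannot be told apart.

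Fdps (chr3:89093588-89101967), at the branch point to prenylation, had a lowest, median and highest level of 12.7, 29.2 and 46.9 CPM in KO, against 28.0, 36.4 and 53.4 CPM in WT. The 4 KO libraries (KO 1, KO 2, KO 4 and KO 9) lay below every WT library, and the other 6 overlapped the WT range. The log2 fold change was -0.53 (SE 0.23, 95% interval -0.99 to -0.06; limma unadjusted p = 0.0282, adjusted p = 0.925), and the exact permutation test gave an unadjusted p of 0.0551. Without KO 4 the fold change was -0.41. Transcripts of 5 other annotated genes matched within the last 300 bases of the Fdps transcript, over at least 50 bases at 95% identity or more. Of the 5, 4 were processed pseudogenes. The other, Gm43738, is annotated as protein-coding at the same place and on the same strand, and overlaps Fdps by 7512 bases. None of the 5 was listed. The sources used here do not say how reads shared with these 5 genes were counted, so the Fdps level is uncertain.

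Fdft1 (chr14:63145150-63181687), the step that commits farnesyl diphosphate to sterols, had 1.06, 6.63 and 10.2 CPM in KO, against 5.07, 8.08 and 12.4 CPM in WT, as lowest, median and highest. The lowest library, KO 4, held 4 reads of it. The log2 fold change was -0.46 (SE 0.32, 95% interval -1.12 to 0.19; limma adjusted p = 0.945), and without KO 4 it was -0.25. Sqle (chr15:59315092-59331193), the epoxidase that follows, had 81.0, 99.3 and 164 CPM in KO, against 54.8, 101 and 127 CPM in WT. The 4 libraries KO 3, KO 7, KO 8 and KO 10 were above the highest WT library, and WT 8 was below every KO library. Its log2 fold change was 0.21 (SE 0.17, 95% interval -0.14 to 0.57; limma adjusted p = 0.955), and 0.098 without WT 8.

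Cyp51 (chr5:4080674-4104697), which acts on lanosterol, had 13.6, 33.1 and 40.6 CPM in KO, against 22.2, 37.0 and 47.6 CPM in WT. In 9 of 10 KO libraries it was below the WT mean. The log2 fold change was -0.27 (SE 0.19, 95% interval -0.67 to 0.12; limma adjusted p = 0.945), and -0.16 without KO 2. Insig1 (chr5:28071412-28078662), the brake on SREBP2, had 3.58, 12.3 and 20.2 CPM in KO, against 1.90, 8.89 and 16.2 CPM in WT. It was above the WT mean in 9 of 10 KO libraries, and WT 7 and WT 8 were low with 10 and 7 reads. Its log2 fold change was 0.37 (SE 0.33, 95% interval -0.31 to 1.05; limma adjusted p = 0.955), and 0.11 without WT 8. The 3′ ends of Fdft1 and Cyp51 overlap genes on the opposite strand, Ctsb and Akap9. The sources used here do not say whether counting used the strand, so reads of each gene and its partner may not be separated.

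**Figure D2:**
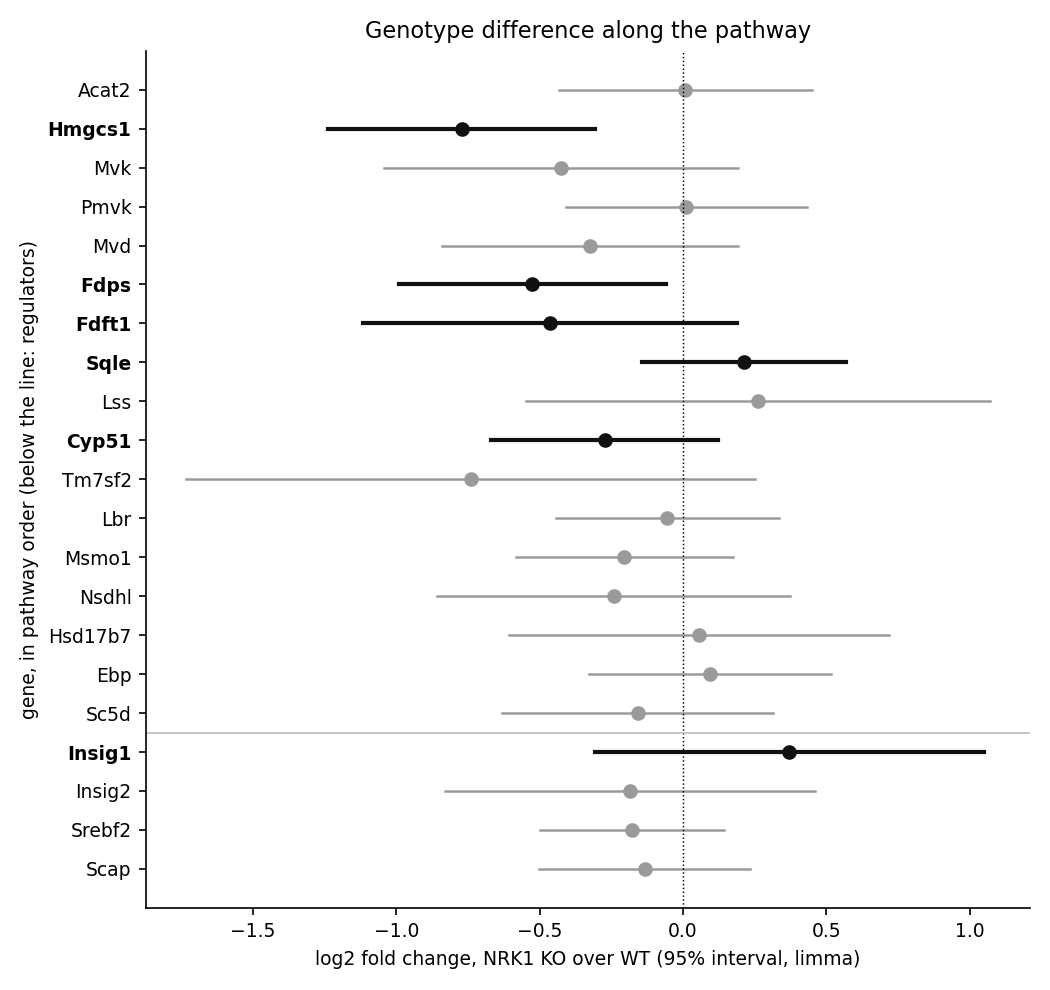
Log2 fold changes of KO over WT (points) with 95% intervals from limma (lines), for the members in bold black and other genes in grey, in pathway order from top to bottom. Hmgcs1 at -0.77 and Fdps at -0.53 have intervals that lie below 0, and every other interval in the plot spans 0.

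Of 16 other synthesis genes 15 were listed, and 10 were lower and 5 higher in KO, with a median log2 fold change of -0.09. At an unadjusted p under 0.05, 0 of the 15 passed in either direction. The mevalonate kinase gene Mvk was at -0.43 and the decarboxylase gene Mvd at -0.32. Further down, Lss, which closes the sterol ring, was at 0.26 and Msmo1, a methyl sterol oxidase, at -0.20. The sterol reductase gene Tm7sf2 was the lowest of the 15 at -0.74, on 0 to 21 reads a library. All 5 had limma adjusted p of 0.945 or above.

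Among 12 genes of sterol sensing, 12 were listed, 5 higher and 7 lower in KO, with a median log2 fold change of -0.11. Srebf2 was at -0.18 (limma adjusted p = 0.955), Srebf1 at 0.01 and Insig2, the relative of Insig1, at -0.18. Of the 12, 1 had an unadjusted p under 0.05: Ube2g2, a ubiquitin-conjugating E2 enzyme of protein degradation at the endoplasmic reticulum, at a log2 fold change of 0.55 (limma adjusted p = 0.878). Ube2g2 had 10.2, 13.9 and 20.9 CPM in KO, against 7.48, 9.07 and 12.2 CPM in WT, as lowest, median and highest, and was above the WT mean in 10 of 10 KO libraries.

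Of 20 genes of uptake, transport and export 19 were listed, 11 higher and 8 lower in KO, with a median log2 fold change of 0.04. At an unadjusted p under 0.05, 1 of the 19 was higher (Abcg1) and 1 was lower, and 0 were called. The lower gene is not reported here by name. Abcg1, a sterol exporter, had 17.5, 35.7 and 60.01 CPM in KO, against 10.3, 24.0 and 37.8 CPM in WT. Its log2 fold change was 0.63 (limma unadjusted p = 0.0220, adjusted p = 0.925).

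Markers of other islet cells also differed in mean between the groups. Of 7 alpha-cell markers 6 were listed, and all 6 were lower on average in KO, with 2 at an unadjusted p under 0.05 and 0 called. Their summed level ran from 2016 to 9280 CPM in KO and from 3828 to 11774 CPM in WT. With the alpha-cell score as a covariate, the log2 fold change was -0.73 for Hmgcs1, -0.28 for Fdps, -0.15 for Fdft1 and -0.16 for Cyp51. Of 6 adipocyte markers 3 were listed, and all 3 were higher on average in KO, 2 of them (Fabp4 and Car3) at an unadjusted p under 0.05 and 0 called, with summed levels of 26.3 to 106 CPM in KO and 20.4 to 43.7 CPM in WT. With that score as a covariate Hmgcs1 was at -0.80 and Fdps at -0.40. Of 6 endothelial markers 6 were listed, 5 higher on average in KO, with 1 (Flt1) at an unadjusted p under 0.05 and 0 called. Their summed levels were 244 to 405 CPM in KO and 205 to 312 CPM in WT. Beyond these fits, the part of these cells in the differences was not tested. Over 72 relations between a member and a property of the libraries (marker scores, insulin share, depth and genes at 0 reads), 0 had a permutation p under 0.05 after adjustment over the 72. The strongest was Sqle with the acinar score (Pearson r = -0.63, n = 18, permutation p = 0.00483, adjusted p = 0.153; Spearman rho = -0.66, permutation p = 0.00329, adjusted p = 0.165), and r was -0.54 without the 2 libraries farthest from the median. Next came Cyp51 with the stromal score (r = -0.60, permutation p = 0.00627), Fdps with the alpha-cell score (0.59, permutation p = 0.00914) and Fdft1 with the stromal score (-0.58, permutation p = 0.00717). Each had an adjusted p of 0.153, and without the 2 farthest libraries r was -0.55, 0.30 and -0.49. For Fdps and the endothelial score r was -0.56 (permutation p = 0.0146, adjusted p = 0.153; rho = -0.57, permutation p = 0.0151, adjusted p = 0.272), and -0.55 without the 2 farthest libraries.

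Animal numbers in the titles fall into runs, and 3 runs hold both groups, 12 libraries in all. The labels do not say what a run is. Within the runs the KO minus WT difference of Hmgcs1 was -0.74 (2 against 2), -0.63 (2 against 2) and -0.99 (3 against 1). Fdft1 was at -0.86, -1.23 and -0.73, Fdps at -0.54, -0.63 and -0.16, and Cyp51 at -0.58, -0.26 and -0.53. Sqle was at 0.21, -0.08 and 0.11, and Insig1 at 0.24, 0.39 and -0.27, so these differences did not keep a sign in the runs. With the run as a term in limma, Hmgcs1 was at -0.77 and Fdft1 at -0.96 (unadjusted p = 0.0230, adjusted p = 0.509). Fdps was at -0.47 in that fit (unadjusted p = 0.0983, adjusted p = 0.622). In the same 12 libraries without the term, the limma unadjusted p was 0.156 for Fdps and 0.0791 for Fdft1.

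Within each library, 5 ratios were taken among the members in pathway order. They skip listed genes that are not members, such as Mvk and Mvd before Fdps and Lss between Sqle and Cyp51. Each is a difference of deposited log2 values, so the floor is part of it. The floor weighs most on low genes such as Fdft1. With ratios of CPM without the floor, which do not move with the scaling between libraries, the KO minus WT difference was 0.75 for Sqle over Fdft1, -0.49 for Cyp51 over Sqle and 0.80 for Insig1 over the mean of the enzymes (exact permutation p = 0.0700, 0.0609 and 0.0544). The Fdps to Hmgcs1 ratio averaged 0.12 ± 0.99 in KO and -0.13 ± 0.61 in WT (log2, SD, n = 10 and 8), an exact permutation p of 0.544. Fdft1 over Fdps averaged -2.08 ± 0.82 in KO and -2.14 ± 0.63 in WT (exact permutation p = 0.863). Sqle over Fdft1 averaged 4.15 ± 0.76 in KO and 3.48 ± 0.68 in WT, a difference of 0.68 (exact permutation p = 0.0661). Cyp51 over Sqle averaged -1.93 ± 0.53 in KO and -1.44 ± 0.48 in WT, a difference of -0.49 (exact permutation p = 0.0609). Sqle over Fdft1 was thus higher and Cyp51 over Sqle lower on average in KO, each with a p of 0.110 after adjustment over the 5 ratios. Both hold the same Sqle values, so they are not independent results. With each library left out, the differences ran from 0.49 to 0.80 and from -0.58 to -0.35. The exact permutation p ran from 0.0376 to 0.152 and from 0.0327 to 0.137. Both differences were smallest without WT 8, the lowest library in Sqle.

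Insig1 over the mean of the 5 enzymes was -1.23 ± 0.60 in KO (SD, n = 10) and -1.96 ± 0.89 in WT (SD, n = 8), a difference of 0.74. This ratio was above the WT mean in 9 of 10 KO libraries. Its exact permutation p was 0.04998, and its p adjusted over the 5 ratios was 0.110. Without KO 9 the difference was 0.89 (exact permutation p = 0.00506, adjusted p = 0.0253). Without WT 8 it was 0.49 (exact permutation p = 0.119, adjusted p = 0.253). The ratio of Sqle to Hmgcs1 was taken after the values had been seen and has no test. On the log2 scale this ratio was 2.20 ± 0.90 in KO (SD, n = 10) and 1.21 ± 0.60 in WT (SD, n = 8), with 5 KO libraries above the highest WT library.

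**Figure D3:**
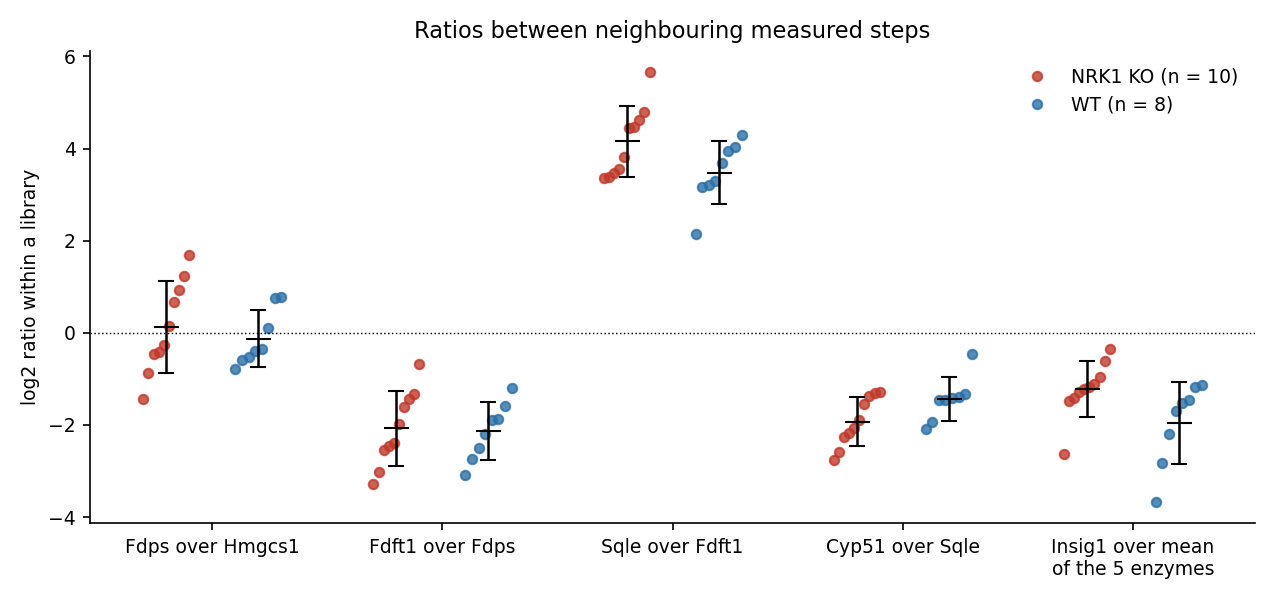
Log2 ratios within each library between members next to each other in pathway order, and of Insig1 to the mean of the 5 enzymes. KO points are left of WT points, and black marks are mean and SD. Listed genes that are not members, such as Lss between Sqle and Cyp51, are skipped. The Insig1 ratio differs by 0.74, Sqle over Fdft1 by 0.68 and Cyp51 over Sqle by -0.49, with overlapping groups in each.

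The members varied together only in part. Over 15 pairs of the 6 genes and 18 libraries, the median Pearson r was 0.16, with 13 of 15 above 0 and a range of -0.47 to 0.72. Over all pairs of genes with a mean log2 value of at least 3 the median r was -0.0002, and 50.0% of those pairs were above 0. Of those pairs, 32.1% were above the members' median, a share of single pairs and not of medians over 15 pairs. Fdft1, at a mean log2 value of 2.86, is itself under that limit of 3. The 105 pairs of other synthesis genes had a median r of 0.05, with 55.2% above 0. The 90 pairs of a member with one of them had a median r of 0.14, with 72.2% above 0. The same libraries enter every pair.

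Fdft1 and Cyp51 had the highest r of the 15, at 0.72 (n = 18, permutation p = 0.00291, adjusted p = 0.0436). Spearman's rho was 0.84 (permutation p = 1e-05, the smallest that the resamples can give, adjusted p = 0.00015). Without KO 4 and WT 5 r was 0.74. Within the groups r was 0.64 in KO and 0.82 in WT. Of 7417 genes 6 had a higher r with Fdft1 than Cyp51 did. The count from the side of Cyp51 was not taken. Cyp51 had high r values with many genes: 181 of 7416 had a higher r with it than Msmo1 did, at r = 0.67. Fdft1 rests on 4 to 52 reads a library. Both genes had a negative r with the stromal score (-0.58 for Fdft1 and -0.60 for Cyp51), and its part in this pair was not tested. Hmgcs1 and Sqle had the lowest r, at -0.47 (permutation p = 0.0468, adjusted p = 0.298; rho = -0.42, permutation p = 0.0835). Without KO 3 and KO 8 it was -0.29, so the relation rests in part on these libraries. It was -0.77 in KO and 0.11 in WT, and this difference was not tested.

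**Figure D4:**
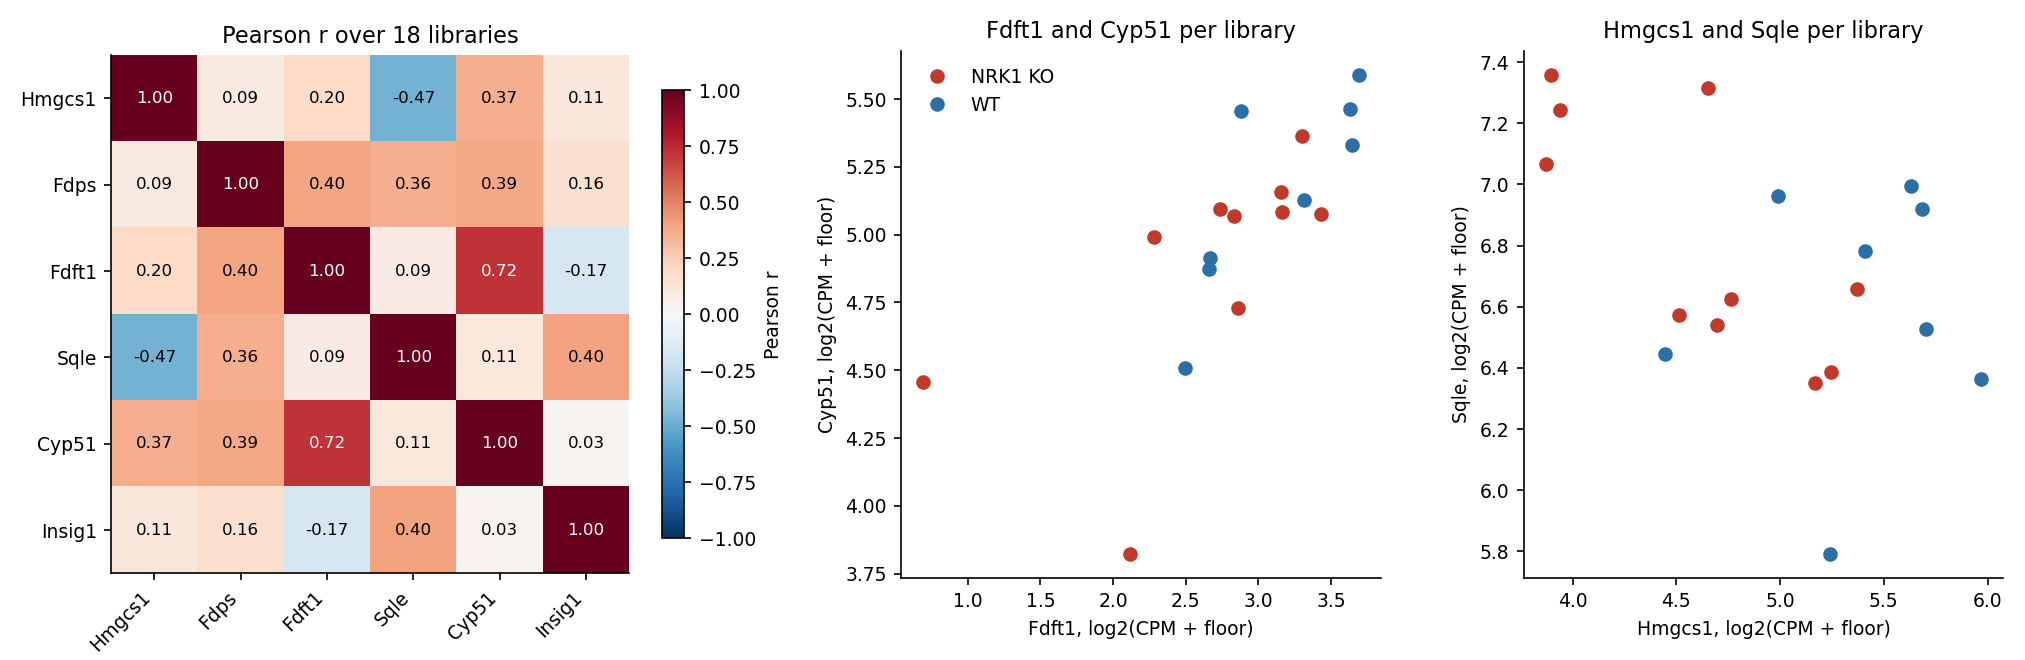
Left, Pearson r of the 6 genes over the 18 libraries; middle and right, log2(CPM + floor) per library of Fdft1 against Cyp51 and of Hmgcs1 against Sqle, with KO in red and WT in blue. The r is 0.72 for Fdft1 and Cyp51 and -0.47 for Hmgcs1 and Sqle, where the lowest Hmgcs1 libraries, KO 3, KO 8 and KO 10, are high in Sqle.

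Libraries differed in which gene was low. The mean standardised value of the 6 members was lowest in KO 4 and KO 2, at -1.13 and -1.11, and highest in WT 5 at 0.96. KO 4 was low in Fdps and Fdft1, the lowest KO library in Sqle and below every WT library in Cyp51. It was above the KO median in Hmgcs1 and Insig1. KO 3, KO 8 and KO 10 were the lowest in Hmgcs1 and were above every WT library in Sqle. KO 2 was below the mean of every member. WT 8 was the lowest of all libraries in both Sqle and Insig1.

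**Figure D5:**
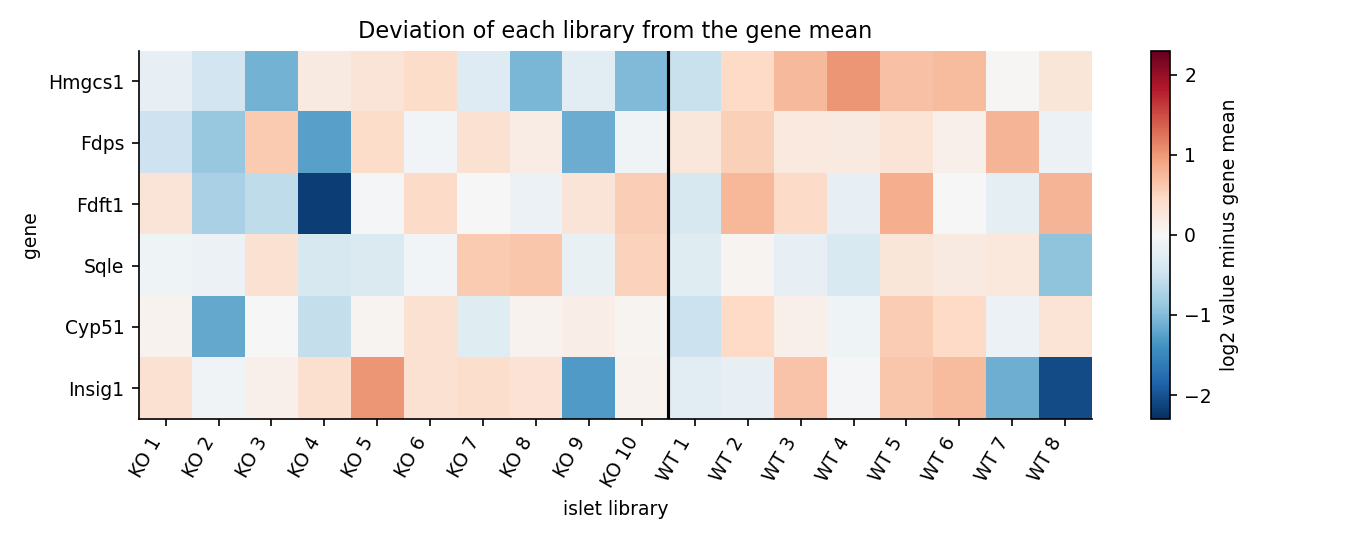
Each cell is the log2 value of 1 gene in 1 library minus that gene's mean over the 18 libraries, with KO libraries left of the black line and WT libraries right of it. Hmgcs1 is low in KO 3, KO 8 and KO 10, Fdps in KO 4 and KO 9, and Fdft1 in KO 4, and KO 2 is below the mean in all 6 genes.

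The genes whose profile was most like the mean standardised profile of the members were ranked over the 18 libraries among 7413 genes. They were Pi4k2a (r = 0.86), Gmppb (0.85), Slc39a7 (0.85), Tuba4a (0.82), Bola3 (0.82), Ndufb7 (0.79), Smim7 (0.79), Rpl13 (0.79), Tle5 (0.79) and Msmo1 (0.78). Msmo1, a methyl sterol oxidase that acts after Cyp51, was the only one of these 10 from the fixed lists of the pathway. The least alike were Mprip at -0.80, Eno3 at -0.79 and Rnf182 at -0.79. These r values describe likeness over the same 18 libraries and carry no test.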

How the data were processed

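Islet RNA was read with the QuantSeq FWD 3′ kit, per the labels' protocols. The deposited table holds log2 values, made by the authors. Per the submitters' processing notes, the tools were STAR 2.5.2, edgeR and HTSeq 0.6.1 and the build was GRCm38, with no role stated. The sources used here do not give the counting strand or annotation. After the shared floor of 0.562 CPM was subtracted, 100% of values were whole reads within 0.05 reads, so read counts were recovered, and total reads per library were 2831137 to 4303680. PCR copies are not independent molecules, so counting error is understated.

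Groups came from the genotype label. Genotypes were compared with limma 3.58.1 in R 4.3.3 over all 10509 genes (empirical Bayes with trend, no covariate, two-sided, Benjamini-Hochberg adjusted p under 0.05), which was tested on simulated data. Ratios were tested by exact permutation over 43758 regroupings, and correlations by permutation with 100000 resamples, adjusted within 15 pairs or 72 library relations. Idi1 has no value here, so 15 pairs and 5 ratios replaced the 21 and 6 planned. The adjustment over the 5 ratios, the 72 relations, the Sqle to Hmgcs1 ratio, the ratios without the floor and 4 covariate fits were set after the values were seen. Members and lists were chosen with earlier results of these data known. Named genes were all members, Srebf2, Srebf1, Insig2, up to 3 genes per list and direction with the smallest unadjusted p under 0.05, and the 10 most and 3 least alike in profile. Other pathway genes named with values were chosen after their values were seen. Some genes of the pathway are not reported here by name. Motifs, promoters and gene ends came from RefSeq and GENCODE tables of GRCm38, and similar transcript ends were found with BLAST 2.17.0.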

Additional observations from a re-analysis of the deposited data

Results flagged for a closer look

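A library that stood far from the rest of its group was looked for in 22 groups of values, and chance gives about 1 in 20 such groups. There were 4. The lowest KO library of Fdft1, KO 4, was at a log2 value of 0.69, and the next KO library was at 2.12. The lowest KO library of Insig1, KO 9, was at 2.05, and the next was at 3.27. The same library was the lowest KO library in the ratio of Insig1 to the mean of the 5 enzymes, at -2.62 against -1.48 for the next. For the ratio of Cyp51 to Sqle, the highest WT library, WT 8, was at -0.46 and the next at -1.32. Without WT 8 the KO minus WT difference of that ratio was -0.35, against -0.49 with it. Without KO 9 the log2 fold change of Insig1 was 0.53, against 0.37 with it, and without KO 4 that of Fdft1 was -0.25, against -0.46 with it.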

How the results depend on the processing

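The 18 alternative settings for each member were 17 limma fits and the exact permutation test, which has no adjusted p. Of the 18, 0 changed the direction of a member, and 0 of the 17 fits gave a member an adjusted p under 0.05. The exact test, the fit without a variance trend and the robust fit keep the fold change by design. So does the fit limited to genes with log2 above 3 in at least 8 libraries. These settings could not change a direction. Hmgcs1 ranged from -0.84 to -0.64 (unadjusted p 0.000169 to 0.0173, lowest adjusted p 0.443). Fdps ranged from -0.59 to -0.28 (unadjusted p 0.0206 to 0.255) and Fdft1 from -0.96 to -0.15 (unadjusted p 0.0230 to 0.670). Cyp51 ranged from -0.45 to -0.16, Sqle from 0.08 to 0.27 and Insig1 from 0.16 to 0.55. Leaving out each library gave -0.91 to -0.69 for Hmgcs1, -0.62 to -0.41 for Fdps, -0.55 to -0.25 for Fdft1, -0.37 to -0.16 for Cyp51, 0.098 to 0.27 for Sqle and 0.11 to 0.53 for Insig1. The limma unadjusted p of Fdps then ran from 0.00928 to 0.0649. Of 35 limma fits 0 called a gene of any kind, and 380 to 919 genes had an unadjusted p under 0.05. At an adjusted p under 0.10, the fit without KO 2, KO 3 and WT 7 called 6 genes. The difference of Fdft1 over Fdps changed sign, from 0.06 to -0.35 in the 12 libraries of the runs (exact permutation p = 0.280), and ran from -0.096 to 0.20 when each library was left out, negative without KO 1, KO 9, KO 10, WT 1 or WT 7. The cause was not tested. The Insig1 ratio ran from 0.49 to 0.89. The highest was without KO 9 (exact permutation p = 0.00506, adjusted p = 0.0253) and the lowest without WT 8 (exact permutation p = 0.119, adjusted p = 0.253). The cause was not tested. The median r of the 15 pairs ran from 0.14 to 0.22 over 7 settings, and from 0.12 to 0.25 when each library was left out. No paired analysis was possible because the labels give no replicate numbers that match KO mice to WT mice; the fit with the run of animal numbers as a term groups 12 libraries and pairs none. At 4 to 52 reads for Fdft1 and 7 to 83 for Insig1, these 2 members had the fewest reads, and counting error took 17.6% and 10.5% of their variance within groups.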

Other observations

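Farnesyl diphosphate also feeds the isoprenoid branch, and 11 of 12 genes of it were listed, 6 higher and 5 lower in KO, with a median log2 fold change of 0.04. At an unadjusted p under 0.05, 0 of the 11 passed, and 0 were called by limma. Dolk, which makes dolichyl phosphate for protein glycosylation, was at -0.44 (limma adjusted p = 0.944). Dhdds and Nus1, the subunits of the enzyme that builds the dolichol chain, were at 0.16 and 0.21. These genes were chosen after their values were seen.

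Of 15 genes of fatty acid synthesis 11 were listed, 5 higher and 6 lower in KO, with a median log2 fold change of -0.0078. Scd1, the desaturase that makes oleate, was the 1 gene of these with an unadjusted p under 0.05. It had a lowest, median and highest level of 12.2, 26.0 and 64.2 CPM in KO, against 8.69, 13.6 and 28.1 CPM in WT, a log2 fold change of 0.72 (limma unadjusted p = 0.0143, adjusted p = 0.897). Scd1 is also a gene of fat cells, and adipocyte marker scores averaged 3.45 ± 0.68 in KO (SD, n = 10) and 2.74 ± 0.36 in WT (SD, n = 8). The part of those cells in the Scd1 difference was not tested. Fasn, the fatty acid synthase, was at -0.27 (limma adjusted p = 0.945).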
